A study of Physcomitrium patens with 6 samples.

Results

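Whole 14-day-old protonemata of the moss Physcomitrella patens were set against chloronemal and caulonemal cells cut by laser from protonemata of the same age. The genes described were chosen by their tags alone. A gene entered when it had over 100 tags in at least 1 of the 3 libraries, which 6963 genes did of the 17371 with a value in these libraries and of the 19265 with a value anywhere in the series. The question is whether the level of a transcript in whole plants lay between its levels in the captured cell types, or above or below both. The plants, of subspecies patens with no genetic change named in the sources used here, had regenerated from protoplasts on BCDAG medium, which holds ammonium tartrate and glucose, and were harvested 14 days after protoplast isolation. Whole plants were lysed for total RNA, and the captured cells went through microdissection of live protonemata and a kit for small samples first. Each captured sample held dividing tip or branching cells together with cells that were not dividing. Each of the 3 libraries was made from 3 biological replicates pooled beforehand, so that each condition has 1 library with no measure of how plants vary. A submitted label calls the day 14 tissue leafy shoot, while the growth protocol and the study's methods call it protonema, and protonema is used here.

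Protonema is the filamentous stage of a moss. Chloronemal cells are short and full of chloroplasts, and they carry most of the photosynthesis of the young colony. Caulonemal cells are longer, hold fewer chloroplasts, extend the colony by tip growth and later bear the buds of leafy shoots. In a bulk sample, fewer cells of a type and less RNA per cell cannot be told apart.

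Digital gene expression tag profiling counts a 21-base tag that begins with the CATG site of the enzyme used, near the 3' end of a transcript. The tags below carry the main contrasts, and capitals mark the CATG site. The first group holds genes in which the same tag was listed in all 3 libraries.
ERD3 Pp1s130_82V6.4: CATGcgtatctggagcaggct
LHCB4.2 Pp1s155_34V6.1: CATGgcaagatgccggcaagg
FTR1-like permease Pp1s99_150V6.1: CATGtggcttcttctcttcag
ferric reductase-like Pp1s54_173V6.1: CATGaggacaccgttccatta
germin-like GL22 Pp1s156_53V6.1: CATGacactaggaagatattt
Pp1s17_304V6.1, above both: CATGgtgctctctaacgatat
Pp1s17_304V6.2, below both: CATGgatgtcaaatgccaggg
The last 2 of these tags belong to 2 gene models of 1 locus that lay on opposite sides. The second group shows genes in which the tag listed for day 14 differed from the tag listed for both captured libraries, which lay nearer the 3' end.
Pp1s2_233V6.1, day 14, site 5: CATGggtatcgatttgaaggc
Pp1s2_233V6.1, captured libraries, site 1: CATGggaagcagcgacgcaag
Pp1s139_88V6.1, day 14, site 2: CATGccatcccctcctccaga
Pp1s139_88V6.1, captured libraries, site 1: CATGggcgcttcctggactgt
The files list 1 tag per gene and library and do not say whether other tags of the gene add to its count.

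The day 14 library held 7027742 gene tags, chloronema 1733082 and caulonema 2557991. In the sentences that follow, unlike tags after the counts marks a gene whose listed tag was not the same in the 3 libraries. Levels are given as normalized TPM, the tags of a gene per 1000000 gene tags after trimmed mean of M-values (TMM) scaling, and TMM factors were 0.827, 1 and 1.21 in the same order. A count of 3 tags, the limit that a count of 0 allows, stands for 0.516 normalized TPM at day 14, 1.73 in chloronema and 0.971 in caulonema. Over 100 tags were found for 6461 of the genes at day 14, 2471 in chloronema and 4069 in caulonema. For 2671 genes only the day 14 library passed that limit, for 46 only chloronema and for 410 only caulonema. The limit counts tags before scaling and so favours genes high in the deepest library. The 33 genes whose highest count was 1 tag above the limit were just inside it, and the 38 with a highest count of 100 tags just outside. Among 22 genes annotated as light-harvesting or photosystem proteins, the summed level was 26540 normalized TPM at day 14, 23600 in chloronema and 8242 in caulonema. The rubisco small subunit gene Pp1s25_114V6.1 lay at 10010, 12590 and 3529 normalized TPM. Both values were lower in caulonema, the cell type with fewer chloroplasts, than in chloronema. The wider class differed less. The 291 tested genes of photosystems and thylakoids took 10.9% of the gene tags in chloronema and 9.61% in caulonema. Single genes were higher in caulonema, among them Pp1s254_3V6.1 of the thylakoid (1170.4 normalized TPM in chloronema, 2592 in caulonema). Pp1s204_96V6.1, which shares its GO terms with the rubisco gene, had 6125 in chloronema and 6728 in caulonema. Expansins were searched as markers of caulonema, and the 1 tested gene annotated as an expansin was instead higher in chloronema. This gene, Pp1s147_37V6.1, had 34.4 normalized TPM at day 14, 149 in chloronema and 37.2 in caulonema. Gene names came from the study's list of differentially expressed genes, from its text and from the protein matches given with the deposited counts. Only 887 of the 6963 tested genes had a name, so that families counted by name can lack members. Named regulators of rhizoids, of leafy shoots or buds and of sex organs were not found among the annotated genes, so that cells of new buds could not be checked.

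By level alone, 3477 genes (49.9%) were above both captured libraries at day 14, 1792 (25.7%) below both and 1694 (24.3%) between them. Counting noise alone can place 1 library outside the range of the others, so that these shares by level are a description. A gene was called where the levels differed by over 2-fold and an exact two-sided binomial test of its tags passed p = 0.01 and an adjusted p (Benjamini-Hochberg over all 6963 genes) of 0.001. The test compares libraries, not conditions, and its intervals cover counting error only. Against chloronema, 35.5% of the genes were called higher at day 14 and 14.9% lower. Against caulonema the shares were 34.9% and 15.4%. Both comparisons use the same day 14 library. In total 1783 genes (25.6%) were called above both and 552 (7.93%) below both, while 34 were above chloronema and below caulonema and 34 the reverse. Counts of lists and families given later without another limit are to be read beside 25.6% and 7.93%. The distance to the nearer captured library had a median of 4.02-fold in the genes above both and exceeded 8-fold in 393 of them. In the genes below both the median was 2.71-fold and 26 exceeded 8-fold. In 1603 of the 1783 and 505 of the 552 this distance was larger than the difference between chloronema and caulonema. These counts follow in part from the call rule, which asks for over 2-fold against both. Over all tested genes the captured libraries differed by over 2-fold in only 35.8%. The genes above both took 40.2% of the gene tags at day 14 against 9.88% in chloronema and 11.7% in caulonema. Those below both took 1.84%, 9.75% and 10.2%.

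**Figure D1:**
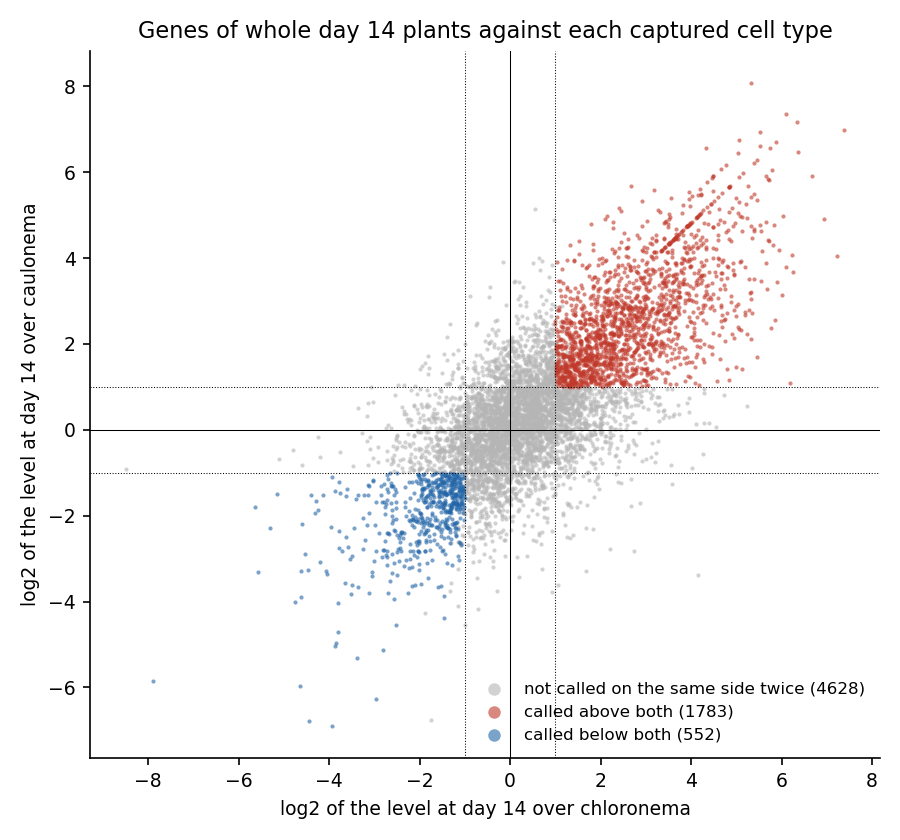
Each point is 1 of 6963 genes, with the log2 ratio of its level at day 14 to chloronema on the x axis and to caulonema on the y axis; dotted lines mark 2-fold, and a gene with no value in a library is drawn at 3 tags, which gives the diagonal streak. The 1783 genes called above both (red) reach further from 0 than the 552 called below both (blue), and both axes share the day 14 library.

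The excess of genes above both depended on the filter. Of them, 1284 had over 100 tags only at day 14 and so entered through the library in which they were high. Among the 4292 genes with over 100 tags in at least 1 captured library, a limit added after the data had been seen, 499 (11.6%) were above both and 552 (12.9%) below both, and counts given later with this limit are to be read beside these shares. Among the 2202 genes with over 100 tags in each library the shares were 12.4% and 10.2%. A limit of 50 normalized TPM in at least 1 library, which does not depend on depth, gave 25.6% above and 9.47% below of 4403 genes. Among the 4874 genes with the same tag in the 3 libraries they were 22.1% and 8.68%. Scaling by total gene tags instead of TMM moves the median log2 ratio of all genes from 0.44 to 0.16 against chloronema and from 0.43 to -0.12 against caulonema, and it gave 1319 genes above both and 890 below. Among the called genes the share above was then 59.7%, against 76.4% with TMM. Among genes named below, PORA, CPN60B, the lipoxygenase-6 gene, Pp1s51_315V6.1, Pp1s347_12V6.1, Pp1s219_106V6.1 and Pp1s215_51V6.1 were no longer called with total gene tags, the last also with DESeq2 size factors. With the deposited TPM the lipoxygenase-6 gene, Pp1s347_12V6.1, Pp1s219_106V6.1, EIN3b, RPT4, Pp1s160_149V6.1, Pp1s17_306V6.1 and Pp1s651_2V6.2 were no longer called. The edgeR quasi-likelihood test, with the captured libraries taken as 1 group, called no gene on either side. At an unadjusted p of 0.05 the same test held 1129 genes above and 189 below.

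Genes of the chloroplast membranes were rarely below both, and antenna genes held some of the largest levels above both. Of 291 tested genes of photosystems and thylakoids, 78 (26.8%) were above both, a share near that of all genes, and 8 (2.75%) below, and the median log2 ratio was 0.56 to chloronema and 0.77 to caulonema, against 0.44 and 0.43 over all genes. With over 100 tags required in a captured library, 40 of 216 were above and 8 below. LHCB4.2, a minor antenna protein of photosystem II (Pp1s155_34V6.1), had 4855 normalized TPM at day 14, 479 in chloronema and 403 in caulonema (28224, 831 and 1246 tags) and was 10.1-fold (95% interval 9.46 to 10.9) above the nearer captured library. LHCB2.1, a protein of the major antenna (Pp1s12_390V6.1), had 402 normalized TPM at day 14, 81.9 in chloronema and 23 in caulonema (2335, 142 and 71 tags), a distance of 4.91-fold (95% interval 4.14 to 5.85). PSB27, which assists the assembly and repair of photosystem II (Pp1s131_184V6.1), was 4.97-fold (95% interval 4.23 to 5.87) higher than the nearer library. PSB27 carries no GO term and is not in the list. Not every antenna gene lay above both. A second gene with the symbol LHCB4.2, Pp1s155_36V6.1, was called on neither side of both. It had 240 normalized TPM at day 14, 420 in chloronema and 379 in caulonema (1393, 729 and 1172 tags, unlike tags). A second gene with the symbol LHCB2.1, Pp1s13_200V6.1, was also called on neither side of both. It had 1185 normalized TPM at day 14, 4586 in chloronema and 1738 in caulonema (6886, 7954 and 5369 tags). LHCA1, an antenna protein of photosystem I (Pp1s158_109V6.1), had 558 normalized TPM at day 14, 1447 in chloronema and 266 in caulonema (3243, 2510 and 822 tags), below chloronema and above caulonema. The most abundant member above both was Pp1s254_3V6.1, annotated to tetrapyrrole binding in the thylakoid, with 10213 normalized TPM at day 14, 1170.4 in chloronema and 2592 in caulonema (59370, 2030 and 8010 tags). The member below both with the most tags was Pp1s651_2V6.2, annotated to photosystem I, with 242 normalized TPM at day 14, 617 in chloronema and 522 in caulonema (1408, 1071 and 1613 tags). Antenna proteins are made by families with near-identical copies, and tags with several matches were removed by the authors, so that the counts of single members are uncertain.

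In chlorophyll and porphyrin synthesis, 18 of 51 genes (35.3%) were above both and 1 (1.96%) below. PORA, which reduces protochlorophyllide in the light (Pp1s146_112V6.1), had 314 normalized TPM at day 14, 154 in chloronema and 119 in caulonema (1828, 267 and 367 tags, unlike tags). A gene annotated to porphyrin synthesis in the stroma, Pp1s51_315V6.1, was 2.34-fold (95% interval 2.10 to 2.62) above the nearer library. The exception was Pp1s225_73V6.1, annotated to iron-sulfur cluster binding in the plastid inner membrane, with 59.9 normalized TPM at day 14, 246 in chloronema and 142 in caulonema (348, 427 and 440 tags, unlike tags). VTE1, the tocopherol cyclase of vitamin E synthesis (Pp1s130_227V6.1), was 12.6-fold (95% interval 8.02 to 21.1) above the nearer library. Carbon fixation and photorespiration stood differently, with 3 of 32 genes above both, 1 below and median log2 ratios of -0.07 and 0.53. Outside that list, GLDP1, the P-protein of the glycine decarboxylase complex of photorespiration (Pp1s15_499V6.1), was below both with 96.7 normalized TPM at day 14, 373 in chloronema and 399 in caulonema (562, 647 and 1234 tags). A second gene with the annotation of that complex, Pp1s276_86V6.1, had 139 normalized TPM at day 14, 382 in chloronema and 322 in caulonema (809, 662 and 994 tags) and was below both as well.

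**Figure D2:**
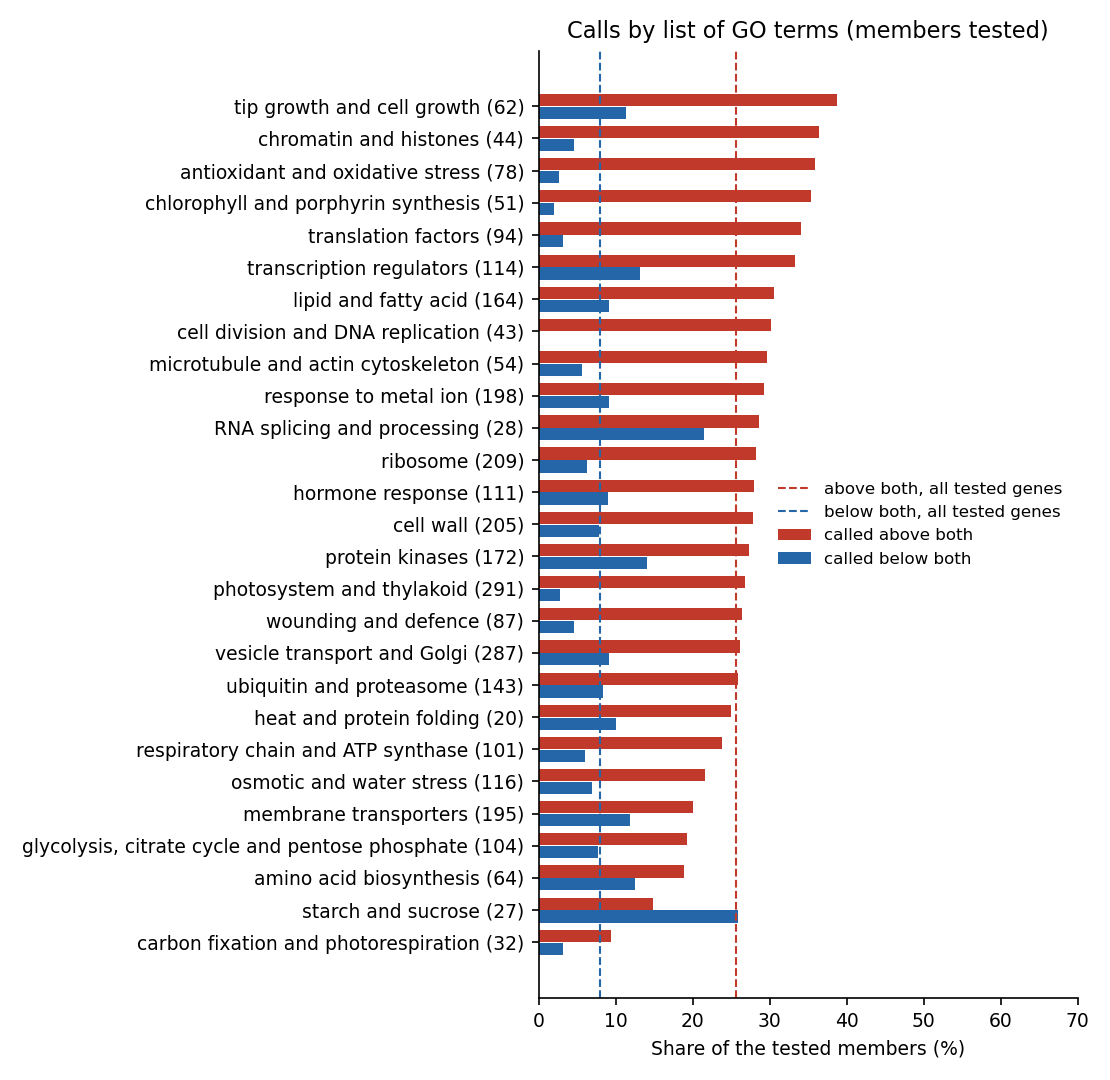
For each of 27 lists of GO terms, with its number of tested genes in brackets, red bars give the share of members called above both captured libraries and blue bars the share called below both; dashed lines mark the shares over all tested genes, 25.6% and 7.93%. The photosystem, chlorophyll, antioxidant and translation factor lists have few members below both, while starch and sucrose has more below than above; lists share members.

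Translation factors held few members below both, while ribosome genes lay near the shares of all genes, 25.6% and 7.93%. Of 94 translation factors 32 (34%) were above and 3 (3.19%) below, with median log2 ratios of 0.81 and 0.60, and of 209 ribosome genes 59 (28.2%) were above and 13 (6.22%) below. With over 100 tags required in a captured library the counts were 20 and 3 of 70 and 36 and 13 of 180. EIF3B-2, a subunit of the initiation factor that binds the small ribosomal subunit (Pp1s138_36V6.1), had 240.3 normalized TPM at day 14, 13.3 in chloronema and 18.1 in caulonema (1397, 23 and 56 tags, unlike tags). The RNA helicase EIF4A1 (Pp1s136_29V6.2) had 1179 normalized TPM at day 14, 238 in chloronema and 191 in caulonema (6855, 412 and 589 tags), 4.96-fold (95% interval 4.49 to 5.50) above the nearer library. Of 5 named initiation factor genes, put together after the values had been seen, 3 were above both and 2 on neither side. Those 2 were a second EIF3B-2 gene, Pp1s130_248V6.3, and EIF3K (Pp1s167_150V6.1). Levels at day 14, in chloronema and in caulonema were 20.6, 6.34 and 10.4 normalized TPM in the former and 90.1, 139 and 28.5 in the latter. Pp1s33_341V6.1, annotated to translational initiation, was among the furthest above both, with 1773 normalized TPM at day 14, 38.6 in chloronema and 18.1 in caulonema (10308, 67 and 56 tags), or 45.9-fold (95% interval 36.1 to 59.3). The ribosome gene with the most tags, Pp1s38_196V6.1, had 12947 normalized TPM at day 14, 1436 in chloronema and 2286 in caulonema (75260, 2491 and 7063 tags, unlike tags). On the other side Pp1s21_269V6.1, of the small ribosomal subunit, had 75 normalized TPM at day 14, 430.1 in chloronema and 1767 in caulonema (436, 746 and 5459 tags). Of 20 genes of heat response and protein folding 5 (25%) were above both and 2 (10%) below, near the shares of all genes. CPN60B, a chaperonin subunit of the chloroplast (Pp1s15_485V6.2), was above both with 302 normalized TPM at day 14, 60.0 in chloronema and 109 in caulonema (1755, 104 and 337 tags, unlike tags), and so was its partner CPN20 (Pp1s12_216V6.1) with 159 normalized TPM at day 14, 2.31 in chloronema and no listed tag in caulonema (924, 4 and 0 tags).

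Few genes that handle reactive oxygen were below both. Of 78 genes of antioxidant function and oxidative stress 28 (35.9%) were above both and 2 (2.56%) below, beside 25.6% and 7.93% of all genes, and with over 100 tags required in a captured library 16 and 2 of 58. Pp1s44_277V6.1, annotated to antioxidant activity and the metabolism of reactive oxygen, had 2749 normalized TPM at day 14, 677 in chloronema and 186 in caulonema (15977, 1174 and 576 tags). A peroxidase gene, Pp1s152_86V6.2, had 1543 normalized TPM at day 14, 367 in chloronema and 514 in caulonema (8967, 637 and 1588 tags). GR1, which reduces glutathione (Pp1s116_56V6.3), was 6.30-fold (95% interval 5.06 to 7.92) above the nearer library. Pp1s160_149V6.1, annotated to antioxidant activity, was below both with 34.1 normalized TPM at day 14, 83.6 in chloronema and 303 in caulonema (198, 145 and 936 tags).

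Iron genes lay on both sides. The files name 6 tested genes of iron uptake or storage, a group put together after the values had been seen, and each was called on the same side against both captured libraries. A ferric reductase-like gene and both FTR1-like genes lay below. The ferric reductase-like gene (Pp1s54_173V6.1), of a family that reduces iron at the cell surface before uptake, had 58.5 normalized TPM at day 14, 1354 in chloronema and 437 in caulonema (340, 2349 and 1351 tags), 7.48-fold (95% interval 6.63 to 8.44) below the nearer library. The FTR1-like permease gene (Pp1s99_150V6.1), named after a yeast high-affinity iron permease, had 203 normalized TPM at day 14, 2361 in chloronema and 1637 in caulonema (1180, 4095 and 5059 tags), or 8.07-fold (95% interval 7.57 to 8.6) lower. A second FTR1-like gene (Pp1s465_25V6.1) had 574 normalized TPM at day 14, 1881 in chloronema and 1351 in caulonema (3339, 3263 and 4176 tags, unlike tags), or 2.35-fold (95% interval 2.25 to 2.46) lower. Both ferritin genes lay above. Ferritin is the iron store of the plastid. Of its genes, Pp1s59_356V6.1 had 181 normalized TPM at day 14, 62.8 in chloronema and 49.2 in caulonema (1054, 109 and 152 tags), 2.89-fold (95% interval 2.37 to 3.55) above the nearer library. The other, Pp1s51_217V6.1, had 57.1 normalized TPM at day 14, 13.3 in chloronema and 12.3 in caulonema (332, 23 and 38 tags, unlike tags), 4.31-fold (95% interval 2.82 to 6.89) above the nearer library. The sixth gene, a cytochrome b561 protein with a ferric reductase and a DOMON domain (Pp1s112_142V6.1), was above both with 63 normalized TPM at day 14, 1.73 in chloronema and 9.38 in caulonema (366, 3 and 29 tags). BTS, in Arabidopsis a regulator of the iron response (Pp1s129_63V6.3), lay below both with 15.5 normalized TPM at day 14, 94.6 in chloronema and 61.8 in caulonema (90, 164 and 191 tags). So did NFS1, which provides sulfur for iron-sulfur clusters (Pp1s165_66V6.1), with 22.9 normalized TPM at day 14, 70.9 in chloronema and 53.7 in caulonema (133, 123 and 166 tags). Over all 49 genes annotated to iron-sulfur cluster binding, 7 were above both and 10 below, with median log2 ratios of -0.33 and 0.07.

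**Figure D3:**
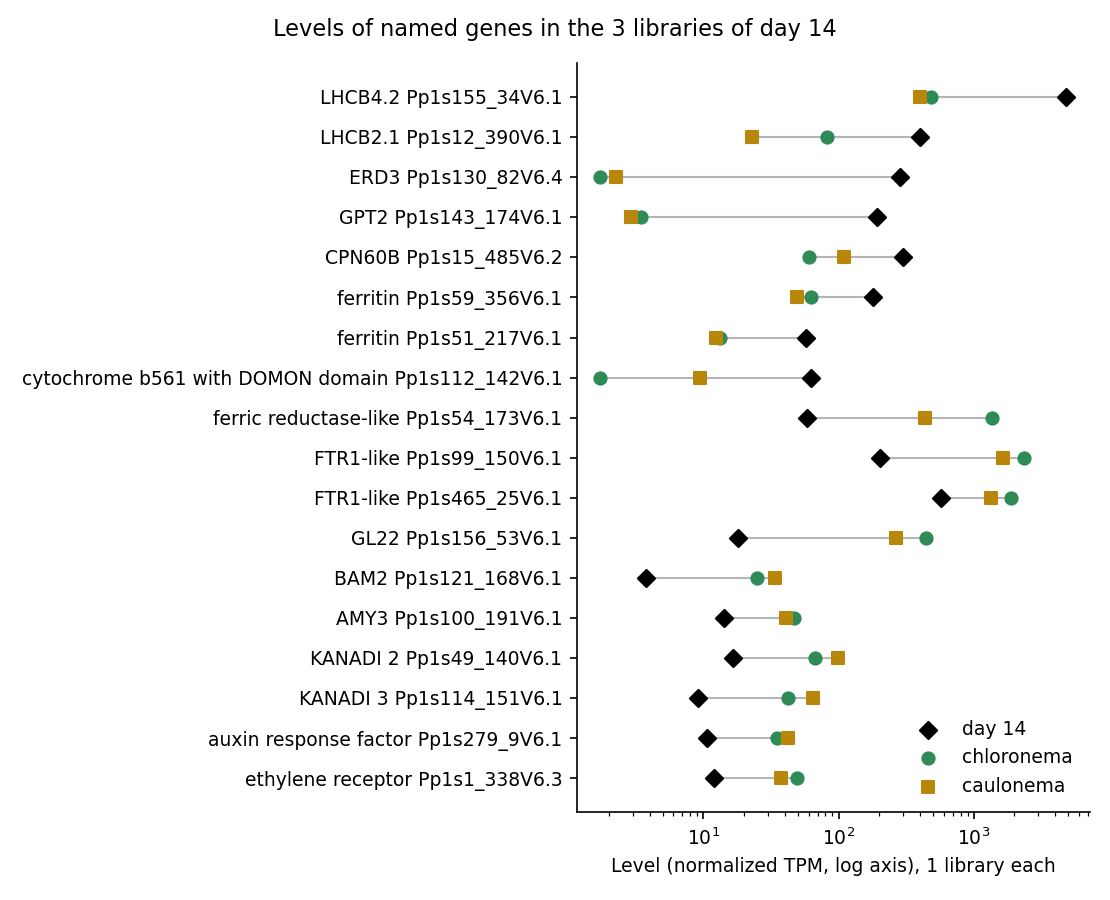
Levels of 18 named genes in normalized TPM on a log axis, with 1 library per symbol: day 14 as diamonds, chloronema as circles and caulonema as squares. In the upper 8 rows, from LHCB4.2 to the cytochrome b561 gene, day 14 lies above both captured libraries, and in the lower 10, from the ferric reductase-like gene to an ethylene receptor gene, below both.

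Starch and sucrose was the list with the largest share below both, 7 of 27 genes against 4 above, and the count was 4 and 4 of 18 with the limit of 50 normalized TPM. Both amylase genes named here were below: BAM2, a beta-amylase (Pp1s121_168V6.1), had 3.78 normalized TPM at day 14, 24.8 in chloronema and 33.7 in caulonema (22, 43 and 104 tags), and AMY3, an alpha-amylase (Pp1s100_191V6.1), had 14.3 normalized TPM at day 14, 46.7 in chloronema and 40.8 in caulonema (83, 81 and 126 tags). A trehalase gene, Pp1s51_76V6.1, was below both with 16.3 normalized TPM at day 14, 58.2 in chloronema and 56.6 in caulonema (95, 101 and 175 tags). Members above both included Pp1s44_268V6.1, annotated to debranching activity in starch metabolism, with 1692 normalized TPM at day 14, 246 in chloronema and 319 in caulonema (9836, 426 and 986 tags), and Pp1s347_12V6.1, annotated to adenylyltransferase activity in the plastid, with 112 normalized TPM at day 14, 42.1 in chloronema and 52.1 in caulonema (649, 73 and 161 tags). GPT2, which carries glucose-6-phosphate across the plastid envelope (Pp1s143_174V6.1), was among the furthest above both with 192 normalized TPM at day 14, 3.46 in chloronema and 2.91 in caulonema (1117, 6 and 9 tags, unlike tags), or 55.5-fold (95% interval 25.4 to 152). The 104 genes of central carbon metabolism (glycolysis, citrate cycle, pentose phosphate) had medians near 0 (-0.04 and 0.00), with 20 above and 8 below. An ATP synthase gene of the plastid, Pp1s103_66V6.1, had 308 normalized TPM at day 14, 3719 in chloronema and 806 in caulonema (1788, 6450 and 2490 tags) and lay below both, whereas Pp1s398_22V6.1, of the mitochondrial ATP synthase, had 823 normalized TPM at day 14, 180.5 in chloronema and 64.4 in caulonema (4785, 313 and 199 tags, unlike tags) and lay above. Of 64 genes of amino acid biosynthesis 12 were above and 8 below, and 2 and 8 of 40 with over 100 tags required in a captured library.

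Regulators of development and hormone response gave counts on both sides. Of 114 transcription regulators 38 were above both and 15 below, shares of 33.3% and 13.2%, and of 172 protein kinases 47 were above and 24 below. With over 100 tags required in a captured library both lists had more members below than above, with 9 above and 15 below of 65 and 11 above and 24 below of 104, and so did all genes under this limit (11.6% and 12.9%). Both tested genes named KANADI, a family that in flowering plants sets the polarity of organs, were below. KANADI 2 (Pp1s49_140V6.1) had 16.5 normalized TPM at day 14, 67.5 in chloronema and 99 in caulonema (96, 117 and 306 tags) and KANADI 3 (Pp1s114_151V6.1) had 9.12 normalized TPM at day 14, 42.1 in chloronema and 64.4 in caulonema (53, 73 and 199 tags). Of 8 MADS-domain gene models 3 were below and 1 above. PPM7 (Pp1s313_41V6.1) had 6.71 normalized TPM at day 14, 35.7 in chloronema and 35.3 in caulonema (39, 62 and 109 tags). PPMA10 (Pp1s90_121V6.1) had 4.47 normalized TPM at day 14, 108 in chloronema and 20.4 in caulonema (26, 187 and 63 tags). PPMA9 (Pp1s55_284V6.1) lay above, with 17.9 normalized TPM at day 14, 1.15 in chloronema and no listed tag in caulonema (104, 2 and 0 tags). These families were put together after the values had been seen, and all of these genes but PPMA9 had the same tag in the 3 libraries.

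Of 111 genes of hormone response 31 (27.9%) were above both and 10 (9.01%) below, near the 25.6% and 7.93% of all genes, and 5 and 10 of 63 with over 100 tags required in a captured library. Of 7 named receptors and response factors of auxin and ethylene, a group put together after the values had been seen, 4 were below both and none was above, and all 7 had the same tag in the 3 libraries. The TIR1-like auxin receptor TLP3C (Pp1s140_66V6.1) had 9.63 normalized TPM at day 14, 43.2 in chloronema and 40.8 in caulonema (56, 75 and 126 tags). An auxin response factor gene (Pp1s279_9V6.1) had 10.7 normalized TPM at day 14, 35.2 in chloronema and 42.4 in caulonema (62, 61 and 131 tags), or 3.30-fold (95% interval 2.28 to 4.77) lower. An ethylene receptor gene (Pp1s1_338V6.3) had 12 normalized TPM at day 14, 49 in chloronema and 37.5 in caulonema (70, 85 and 116 tags), and EIN3b, a transcription factor of ethylene signalling (Pp1s11_337V6.1), had 21.7 normalized TPM at day 14, 57.7 in chloronema and 60.8 in caulonema (126, 100 and 188 tags). The other 3 were called on neither side of both: another ethylene receptor gene, annotated with the symbol ETR1 (Pp1s115_107V6.1), with 25.5 normalized TPM at day 14, 31.7 in chloronema and 62.1 in caulonema (148, 55 and 192 tags), the ethylene receptor gene ETR3 and a TIR1-like gene. The arginine decarboxylase ADC1, of polyamine synthesis (Pp1s14_213V6.1), had 15.7 normalized TPM at day 14, 116 in chloronema and 82.5 in caulonema (91, 202 and 255 tags) and a second gene of the same annotation, Pp1s41_319V6.1, had 21.5 normalized TPM at day 14, 116 in chloronema and 117 in caulonema (125, 202 and 361 tags), and both genes lay below. The circadian clock gene PRR4 (Pp1s81_144V6.2) was below both with 9.12 normalized TPM at day 14, 50.2 in chloronema and 52.4 in caulonema (53, 87 and 162 tags, unlike tags).

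Genes of tip growth and cell growth had the largest share above both among the lists, 24 of 62 (38.7%), with 7 (11.3%) below. The shares of all genes were 25.6% and 7.93%. The medians of the list were 1.14 to chloronema and 0.41 to caulonema. With over 100 tags required in a captured library the counts were 7 and 7 of 37, and with the same tag in the 3 libraries 11 and 5 of 36, with medians of 0.43 and 0.01 against 0.27 and 0.34 over all same-tag genes. DWF1, an enzyme of brassinosteroid synthesis in Arabidopsis (Pp1s130_191V6.3), was above both with 1122 normalized TPM at day 14, 180.5 in chloronema and 227 in caulonema (6522, 313 and 702 tags). Pp1s60_199V6.3, annotated to N-acyltransferase activity, had 1840.0 normalized TPM at day 14, 64 in chloronema and 54.7 in caulonema (10696, 111 and 169 tags). AKT2, a potassium channel (Pp1s3_156V6.1), was below both with 48.3 normalized TPM at day 14, 208 in chloronema and 173 in caulonema (281, 361 and 536 tags). Of 11 genes of Rop and Arf GTPases, put together after the values had been seen, 4 were above both and none below. With so few genes these counts are not set apart from the 25.6% and 7.93% of all genes. Rop GTPases direct tip growth, and 2 of their 3 genes were above both, Pp1s51_114V6.1 with 271 normalized TPM at day 14, 13.8 in chloronema and 31.7 in caulonema (1576, 24 and 98 tags) and Pp1s165_55V6.1 with 32 normalized TPM at day 14, 2.31 in chloronema and 0.971 in caulonema (186, 4 and 3 tags). The other Rop gene, Pp1s257_74V6.1, had 33.2 normalized TPM at day 14, 19.6 in chloronema and 43.7 in caulonema (193, 34 and 135 tags, unlike tags) and was called on neither side.

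Membrane traffic held members on both sides. Of 287 genes of vesicle transport and the Golgi 75 (26.1%) were above and 26 (9.06%) below, near the 25.6% and 7.93% of all genes, and 17 and 26 of 170 with over 100 tags required in a captured library. The SNARE, Rab and ABC families in this paragraph were put together after the values had been seen. Of 24 named SNARE genes, which fuse vesicles with their targets, 5 were above both, a smaller share than that of all genes, and none below. The R-SNARE of the VAMP72 family (Pp1s269_22V6.1) had 132 normalized TPM at day 14, 2.31 in chloronema and 4.85 in caulonema (769, 4 and 15 tags), 27.3-fold (95% interval 16.4 to 48.9) above the nearer library, and another of that family (Pp1s219_102V6.2) had 1304 normalized TPM at day 14, 402 in chloronema and 414 in caulonema (7581, 698 and 1280 tags, unlike tags). Of 3 Arf6 GTPase genes, Pp1s3_102V6.1 was 18.2-fold (95% interval 10.8 to 33.4) above the nearer library and the other 2 were called on neither side. Of 30 Rab GTPase genes 9 were above and 2 below. Of 40 ABC transporter genes 7 were above and 8 below. The subfamily B transporter Pp1s338_12V6.1 was below both with 28.6 normalized TPM at day 14, 479 in chloronema and 279.6 in caulonema (166, 831 and 864 tags, unlike tags). Over all 195 membrane transporters 39 were above and 23 below, shares of 20% and 11.8%. AMT2, an ammonium transporter (Pp1s12_395V6.1), had 6.88 normalized TPM at day 14, 40.9 in chloronema and 34.6 in caulonema (40, 71 and 107 tags, unlike tags), and the potassium transporter HAK1 (Pp1s6_102V6.1) had 29.8 normalized TPM at day 14, 86.5 in chloronema and 133 in caulonema (173, 150 and 411 tags, unlike tags), and both lay below.

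Chromatin genes were above both in 16 of 44 cases and below in 2, but only 19 of them had over 100 tags in a captured library, with 1 above and 2 below. A histone chaperone gene (Pp1s319_51V6.1) was above both with 132 normalized TPM at day 14, 11 in chloronema and 11 in caulonema (767, 19 and 34 tags). A nucleosome assembly gene (Pp1s3_209V6.2) had 94.3 normalized TPM at day 14, 12.7 in chloronema and 8.09 in caulonema (548, 22 and 25 tags). An H2A variant gene (Pp1s376_22V6.1) had 44.9 normalized TPM at day 14, 2.88 in chloronema and 0.971 in caulonema (261, 5 and 3 tags, unlike tags). One histone H2A gene (Pp1s452_4V6.1) was below both with 45.4 normalized TPM at day 14, 172 in chloronema and 93.5 in caulonema (264, 299 and 289 tags). Histone genes have near-identical copies, so that the authors' removal of tags with several matches can split their counts. Of 43 genes of cell division and DNA replication 13 (30.2%) were above both and none below, and 8 and 1 of 30 with the limit of 50 normalized TPM. Of 26 with over 100 tags in a captured library 3 were above and none below, a share near the 11.6% of all genes above. The members above both with the most tags were annotated to the small ribosomal subunit as well as to cytokinesis, Pp1s97_272V6.1 with 865 normalized TPM at day 14, 261 in chloronema and 272 in caulonema (5030, 452 and 842 tags) and Pp1s39_130V6.1 with 753 normalized TPM at day 14, 245 in chloronema and 115 in caulonema (4376, 425 and 355 tags).

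Many of the transcripts furthest above both had few or no tags in the captured cells. ERD3, a putative methyltransferase whose Arabidopsis namesake responds to dehydration (Pp1s130_82V6.4), had 287 normalized TPM at day 14, 1.73 in chloronema and 2.27 in caulonema (1669, 3 and 7 tags), 127-fold (95% interval 61.4 to 316) above the nearer library. A second gene model of the locus (Pp1s130_82V6.1) had 798 normalized TPM at day 14, 75 in chloronema and 52.4 in caulonema (4641, 130 and 162 tags) and was also above both. A nucleotidyltransferase family gene (Pp1s101_66V6.1) had 92.7 normalized TPM at day 14, no listed tag in chloronema and 0.971 in caulonema (539, 0 and 3 tags). Pp1s6_467V6.1, annotated to disulfide oxidoreductase activity, had 102 normalized TPM at day 14 (590 tags) and no listed tag in chloronema or caulonema. Its level was 58.7-fold above the nearer library when a floor of 3 tags per library stood for no tag. The lower end of the exact 95% interval against chloronema was 47.6-fold. A thioredoxin superfamily gene (Pp1s114_96V6.2) had 182 normalized TPM at day 14, 3.46 in chloronema and 3.24 in caulonema (1057, 6 and 10 tags). A lipid-transfer protein gene (Pp1s139_88V6.1) had 1084 normalized TPM at day 14, 23.1 in chloronema and 43.4 in caulonema (6300, 40 and 134 tags, unlike tags). The lipid phosphatase-related gene ROD1 (Pp1s166_109V6.1) had 117 normalized TPM at day 14, 2.31 in chloronema and 1.94 in caulonema (680, 4 and 6 tags, unlike tags). An FKBP-like isomerase gene of the thylakoid (Pp1s143_175V6.1) had 227 normalized TPM at day 14, 6.92 in chloronema and 6.80 in caulonema (1320, 12 and 21 tags, unlike tags), and a secretory protein gene of the BSP family (Pp1s154_59V6.1) had 42 normalized TPM at day 14, no listed tag in chloronema and 0.971 in caulonema (244, 0 and 3 tags). Pp1s2_233V6.1, of a ribonucleoprotein complex, had 3143 normalized TPM at day 14, 71.5 in chloronema and 76.4 in caulonema (18269, 124 and 236 tags, unlike tags).

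The 10 transcripts furthest below both all had tags in whole plants, whose library was the deepest of the 3. Their day 14 counts went down to 7 tags, or 1.20 normalized TPM, in Pp1s113_187V6.1. The presence of tags is thus not to be compared with the genes above both, which were sought in shallower libraries. GL22, a germin-like protein of the cell wall (Pp1s156_53V6.1), had 18.1 normalized TPM at day 14, 443 in chloronema and 268 in caulonema (105, 769 and 827 tags), 14.8-fold (95% interval 12.1 to 18.3) below the nearer library. Pp1s54_91V6.1, annotated to protein binding, had 1.38 normalized TPM at day 14, 329 in chloronema and 79.3 in caulonema (8, 571 and 245 tags), or 57.6-fold (95% interval 28.8 to 135) lower. Pp1s204_96V6.1, annotated to carboxy-lyase activity, was the most abundant of the 10 with the largest distance, with 545 normalized TPM at day 14, 6125 in chloronema and 6728 in caulonema (3166, 10623 and 20790 tags). It shares its GO terms with the rubisco small subunit gene Pp1s25_114V6.1, which was not called against chloronema. A protein kinase gene, Pp1s46_110V6.2, had 7.23 normalized TPM at day 14, 194 in chloronema and 116 in caulonema (42, 337 and 359 tags). Pp1s22_322V6.1, annotated to a response to stress, was among the 5 genes with the most tags in chloronema and lay below both, with 1370.0 normalized TPM at day 14, 8393 in chloronema and 6125 in caulonema (7964, 14557 and 18927 tags). In the other direction, Pp1s66_172V6.1, which has no GO term, had the most tags of the day 14 library and lay above both, with 16106 normalized TPM at day 14, 3383 in chloronema and 2064 in caulonema (93621, 5868 and 6379 tags). The methionine sulfoxide reductase gene MSRB2 (Pp1s144_29V6.1), the gene with the most tags in chloronema, had 4737 normalized TPM at day 14, 38441 in chloronema and 7499.6 in caulonema (27534, 66676 and 23174 tags) and was lower at day 14 than in chloronema but not called against caulonema. The 2 genes used in the study as qRT-PCR controls were not called on the same side of both. Pp1s17_377V6.1 had 777 normalized TPM at day 14, 1157 in chloronema and 674 in caulonema (4519, 2006 and 2084 tags), and Pp1s40_169V6.1 had 728 normalized TPM at day 14, 361 in chloronema and 491 in caulonema (4233, 626 and 1517 tags).

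Cell wall and lipid genes were also found on both sides. Of 205 cell wall genes 57 (27.8%) were above both and 16 (7.8%) below, near the 25.6% and 7.93% of all genes, and of 164 genes of lipids and fatty acids 50 (30.5%) and 15 (9.15%). The counts with over 100 tags required in a captured library were 26 and 16 of 155 and 9 and 15 of 91. A carboxylesterase gene of the cell wall and vesicles (Pp1s461_15V6.1) was among the most abundant above both, with 7902 normalized TPM at day 14, 292 in chloronema and 815 in caulonema (45934, 507 and 2519 tags). A lipid-binding gene with a response to cold (Pp1s7_333V6.1) had 6298 normalized TPM at day 14, 1157 in chloronema and 1128 in caulonema (36612, 2007 and 3485 tags, unlike tags). The lipoxygenase-6 gene (Pp1s171_146V6.1), of an enzyme family that oxidises fatty acids, had 2924 normalized TPM at day 14, 719 in chloronema and 1213 in caulonema (16998, 1247 and 3748 tags, unlike tags). The cell wall members below both with the most tags were again of the small ribosomal subunit, Pp1s21_269V6.1 and Pp1s17_306V6.1, the latter with 338 normalized TPM at day 14, 811 in chloronema and 881 in caulonema (1966, 1406 and 2722 tags). Of 143 genes of ubiquitin and the proteasome 37 (25.9%) were above and 12 (8.39%) below, again near all genes. The E2 enzyme gene Pp1s219_106V6.1, which passes ubiquitin on, lay above both with 931 normalized TPM at day 14, 214 in chloronema and 454 in caulonema (5414, 371 and 1402 tags), whereas RPT4, an ATPase of the proteasome cap (Pp1s47_46V6.3), lay below both with 33 normalized TPM at day 14, 78.4 in chloronema and 82.2 in caulonema (192, 136 and 254 tags).

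Of 28 genes of RNA splicing and processing 8 (28.6%) were above and 6 (21.4%) below, beside 25.6% and 7.93% of all genes. With over 100 tags required in a captured library the counts were none and 6 of 11, beside 11.6% and 12.9% of all genes. CBP20, which binds the cap of nuclear RNA (Pp1s105_41V6.3), lay above both with 176 normalized TPM at day 14, 13.3 in chloronema and 17.5 in caulonema (1022, 23 and 54 tags, unlike tags). A gene annotated to the unfolded protein response of the endoplasmic reticulum, with kinase and endoribonuclease activity (Pp1s65_71V6.1), lay below both with 18.4 normalized TPM at day 14, 116 in chloronema and 36.9 in caulonema (107, 201 and 114 tags). CDC48, an ATPase that extracts proteins for degradation (Pp1s296_11V6.2), was above both with 483 normalized TPM at day 14, 38.6 in chloronema and 64.4 in caulonema (2806, 67 and 199 tags, unlike tags). A gene annotated to the microtubule cytoskeleton and its assembly, Pp1s215_51V6.1, was above both with 532 normalized TPM at day 14, 264 in chloronema and 192 in caulonema (3094, 458 and 594 tags), while a motor protein gene of microtubules, Pp1s60_159V6.1, was below both with 9.12 normalized TPM at day 14, 38.6 in chloronema and 39.8 in caulonema (53, 67 and 123 tags). Of 10 calcium-dependent protein kinase genes, put together after the values had been seen, 4 were above both and none below, and in 2 of the 4 no tag was listed in chloronema. With so few genes these counts are not set apart from the shares of all genes.

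In 6 of 80 loci with more than 1 tested gene model, one model lay above both captured libraries and another below. At Pp1s17_304V6, model 1 had 279 normalized TPM at day 14, 11.5 in chloronema and 10.03 in caulonema (1619, 20 and 31 tags) and model 2, of the small ribosomal subunit, had 22.7 normalized TPM at day 14, 319 in chloronema and 596 in caulonema (132, 553 and 1843 tags), and the tags listed for them are printed above. At Pp1s184_47V6, model 1 had 30.1 normalized TPM at day 14 (175 tags) and no listed tag in chloronema or caulonema and model 3 had 1.72 normalized TPM at day 14, 26.5 in chloronema and 205 in caulonema (10, 46 and 632 tags). The sources used here do not say how tags were divided between models of 1 locus, so that these counts are uncertain.

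Tag positions moved with the calls. The site listed in the captured library lay nearer the 3' end than at day 14 in 22.3% of genes for chloronema and 23.2% for caulonema, and further in 3.04% and 2.06%. In the genes above both the nearer shares were 28% and 30.5%, and in those below both 17.6% and 17.8%. The site nearest the 3' end took 53.9% of the tags at day 14, 64% in chloronema and 67.3% in caulonema. Genes with the same tag throughout were 60.3% of those above both and 76.6% of those below both. Among same-tag genes the share above both was 15.9% where the 17 bases after CATG held 0 to 5 G or C, and 29.2% where they held 10 to 17. The share below both was 7.98% and 8.82%. The shares also differed with level. The lowest of 5 equal groups by mean level had 45% above both and 1.72% below. The other groups had 19% to 23.3% above and 7.47% to 11% below. The same tag count stands for a lower level at day 14: 3 tags are 0.516 normalized TPM there, 1.73 in chloronema and 0.971 in caulonema. Genes of low mean level thus pass the limit on tags more easily through a high day 14 count, which favours calls above both. The 45% can therefore not be read as a property of level. The limit on tags was varied for the calls as a whole, and with over 100 tags in a captured library 11.6% were above both and 12.9% below. Its part in the shares by tag position, base content and level was not tested. The part of RNA quality and of capture was not tested either, and with 1 library per condition these cannot be told apart from the cells sampled.

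**Figure D4:**
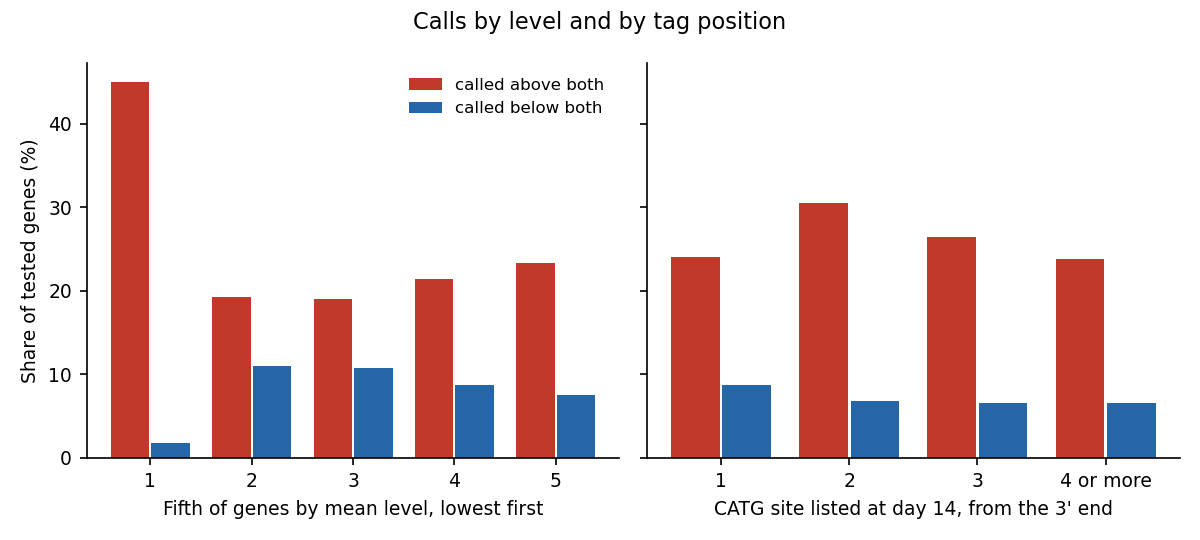
Shares of tested genes called above both (red) and below both (blue) captured libraries, in percent, in 5 equal groups by mean level over the 3 libraries (left) and by the CATG site listed at day 14, counted from the 3' end (right). The lowest group has 45% above both against at most 23.3% in the others, and the shares by site range from 23.8% to 30.5% above. In the lowest group the limit on tags favours genes high at day 14, so that the 45% is not to be read as a property of level.

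The same genes were followed in the other libraries of the series, made from whole plants at 3, 24 and 30 days and scaled by TMM over all 6. The genes above both had a median level of 65.3 normalized TPM at day 3, 71.5 at day 14 and 56.8 at day 24, but 12.6 at day 30, beside 13.1 in chloronema and 14.3 in caulonema. Between day 24 and day 30, 74.1% of them had dropped by over 2-fold at day 30 and 3.31% were higher, against 37.7% and 23.2% over all tested genes. The genes below both had medians of 23.5, 17 and 21.5 normalized TPM at days 3, 14 and 24, 46.2 at day 30, 61 in chloronema and 61.2 in caulonema. At day 30, 54.2% of them exceeded their day 24 level by over 2-fold and 8.33% lay below it by as much. Between day 3 and day 24 the shares lay closer to those of all genes, with 17.5% higher and 26.5% lower in the genes above both, 20.3% and 31.5% in those below both and 19.9% and 25% over all. The day 30 library held 2281272 gene tags, 71.1% of them at the site nearest the 3' end, and 64.5% of its tags were assigned to genes, against 85.5% at day 14, 75.2% in caulonema and 52.8% in chloronema. The part of depth and tag position in the resemblance was not tested.

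**Figure D5:**
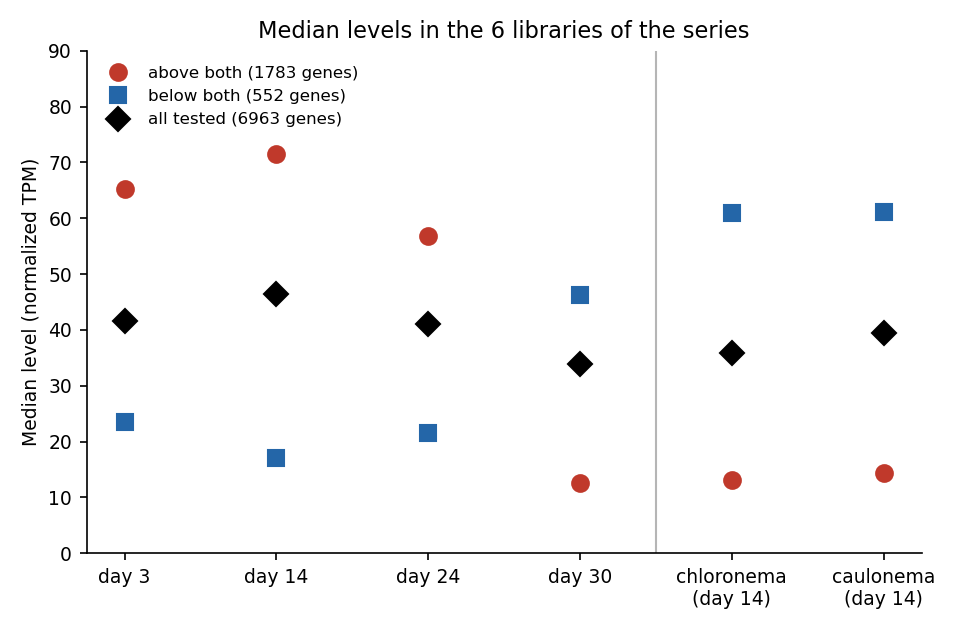
Median level in normalized TPM of the 1783 genes above both (circles), the 552 below both (squares) and all 6963 tested genes (diamonds) in the 6 libraries, 1 library per column, with the captured cells on the right. The circles lie between 56.8 and 71.5 at days 3, 14 and 24 and between 12.6 and 14.3 at day 30 and in the captured cells, and the squares run the other way.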

How the data were processed

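Tag libraries were made by the authors from whole plants and laser-captured cells, each from pooled RNA of 3 biological replicates. Tags of 21 bases were matched by the authors to gene models (Phytozome release 7) with up to 1 mismatch, tags with several matches were discarded, and single tags were removed, so that the lowest listed count is 2. The study names blastn for the match and the submitters' processing notes name Bowtie, for which the sources used here name no version. The deposited counts are tags per gene, and the authors divided them by a larger total than the gene tags to give the deposited TPM. The files also list the GO terms, the matched tag and the place of its CATG site, counted from the end of the gene.

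The 3 libraries were joined by gene, with an absent gene set to 0, and scaled by TMM (edgeR 4.0.16, R 4.3.3) over the counts. Exact two-sided binomial tests and exact (Clopper-Pearson) 95% intervals came from scipy 1.17.1 in Python 3.11.15, with tables in pandas 2.3.3, numpy 2.4.6 and plots in matplotlib 3.10.9. The intervals and the floor of 3 tags cover counting error only, because PCR copies are not independent molecules. Folds against a library with no tag used that floor per library. The scripts were tested on simulated data. As 1 library stands for each condition, no test of the conditions could be made, and edgeR's quasi-likelihood test with both captured libraries as 1 group, DESeq2 1.42.0 size factors, other limits and assumed variation were alternatives.

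The genes eligible to be named were the 10 annotated genes furthest above and the 10 furthest below both, by the interval bound nearest 1, the 2 members with the most tags per list and direction, the 5 most abundant genes of each library and the 2 qRT-PCR controls, and the text gives a part of them. Other named genes were chosen after their values were seen. The members and lists were chosen with earlier results of these data known. A list of calcium-binding terms was dropped, because its pattern matched only a kinase term. Gene coordinates and names from the later reference assembly were not used here, since none of its identifiers matched.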

Additional observations from a re-analysis of the deposited data

Results flagged for a closer look

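For 34 genes the day 14 library was called higher than chloronema and lower than caulonema, and for 34 others it was called lower than chloronema and higher than caulonema. Both comparisons use 1 library per condition and the same day 14 library, and the difference between them was not tested. In these genes the level in whole plants lay between the captured cell types. Among the first group were MSS1, a transporter of the major facilitator superfamily (Pp1s101_17V6.1), with 41.1 normalized TPM at day 14, 3.46 in chloronema and 99 in caulonema (239, 6 and 306 tags, unlike tags), and CAT3, a transporter of cationic amino acids (Pp1s119_47V6.2), with 29.4 normalized TPM at day 14, 12.1 in chloronema and 99.4 in caulonema (171, 21 and 307 tags, unlike tags). MLO14, a membrane protein of the MLO family (Pp1s12_71V6.1), had 29.6 normalized TPM at day 14, 4.61 in chloronema and 65.7 in caulonema (172, 8 and 203 tags). In the second group, PSB29, of photosystem II (Pp1s132_186V6.1), had 211 normalized TPM at day 14, 425 in chloronema and 98.7 in caulonema (1227, 737 and 305 tags, unlike tags). CAC1, of the acetyl-CoA carboxylase that starts fatty acid synthesis in plastids (Pp1s15_270V6.1), had 48 normalized TPM at day 14, 168 in chloronema and 19.4 in caulonema (279, 292 and 60 tags), and FPS2, which makes farnesyl diphosphate for isoprenoids (Pp1s101_225V6.1), had 33.5 normalized TPM at day 14, 124 in chloronema and 11.3 in caulonema (195, 215 and 35 tags). The genes of these examples were chosen after their values were seen.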

How the results depend on the processing

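No paired analysis was possible because each condition has 1 library and no replicate numbers to match, and for the same reason no replicate could be left out. The counts are given for genes above both, below both, higher than chloronema, lower than chloronema, higher than caulonema and lower than caulonema, where the reported values are 1783, 552, 2472, 1039, 2429 and 1071. With 4-fold they were 899, 120, 1377, 285, 1250 and 325. With over 500 tags in 1 library they were 785, 103, 992, 234, 1041 and 184, and with over 100 tags in each of the 3 libraries 274, 225, 379, 539, 492 and 327. With the limit of 50 normalized TPM, 1125 were above both, 1510 higher than chloronema and 1531 higher than caulonema, and with the same tag in the 3 libraries 1076, 1515 and 1559. With over 100 tags in a captured library, chosen after seeing the data, these counts were 499, 948 and 816. These alternatives test fewer genes or ask for more. Without a limit on tags, 1016 were below both, 2069 lower than chloronema and 2456 lower than caulonema. Total gene tags gave 890 below both and 1762 lower than caulonema, and the deposited TPM 612 lower than chloronema. The DESeq2 size factors and an adjusted p of 0.01 kept all 6 counts within 1.5 times. An edgeR exact test with an assumed coefficient of variation of 0.2 gave 1071, 166, 1506, 448, 1531 and 493, and with 0.4 it gave 128, 2, 284, 27, 200 and 16. With the edgeR quasi-likelihood test and the captured libraries as 1 group, 0 were above and 0 below (smallest adjusted p 0.111), with 1129 and 189 at an unadjusted p of 0.05. Of the 1783 and 552 genes, 1319 and 365 were called under TMM and each of the 3 other scalings. The list of central carbon metabolism turned from below the median of all genes to 0.0294 (log2) above it without a limit on tags; the cause was not tested. Chloronema was the shallowest library, and only 46 genes passed the limit of 100 tags in it alone, against 2671 at day 14 alone.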

Other observations

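Among single GO terms with at least 20 tested genes, 161 in all, some with high or low medians were not given on their own above, although their genes can be members of the lists above, and they were picked after their values were seen. Of 25 genes of the proteasome regulatory particle, the cap that unfolds proteins for degradation, 9 were above both and 1 below, with median log2 ratios of 1.32 to chloronema and 0.69 to caulonema. Of 29 genes of cell morphogenesis in differentiation 12 were above both and 2 below, with medians of 1.47 and 0.82. Of 27 genes of the plastid inner membrane 9 were above and 1 below, with medians of 0.86 and 0.98. On the other side stood 40 genes of carboxy-lyase activity with 9 above, 10 below and medians of -0.45 and -0.07. Of 26 genes of cullin-RING ubiquitin ligases, which mark proteins for the proteasome, 5 were above and 5 below, with medians of -0.35 and -0.09. Of 27 genes of metal ion transport 3 were above and 5 below, with medians of -0.23 and -0.00. Terms share genes, and no set was tested.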
